A study of Mus musculus with 10 samples.

Results

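Natural killer (NK) cell receptor genes were examined in tumor-draining lymph nodes (TDLNs) of mice whose mammary tumors had been ablated, with or without an inhibitor of glycolysis. The 10 genes, taken by symbol after the Ensembl identifiers were mapped, were Ncr1, Klrb1c, Klrd1, Klrk1, Klrc1, Klrc2, Klre1, Klrg1, Cd226 and Cd244a, out of 33585 genes in all. All 10 were found, and 6 of them (Ncr1, Klrd1, Klrk1, Klrc1, Klrg1 and Cd226) had a mean level of at least 1 FPKM (fragments per kilobase of transcript, scaled to the mapped fragments of the library), the minimum for the test, which ran across 13334 genes. Bulk RNA-seq was performed on 1 TDLN library from each of 10 mice, 5 per group. Every mouse was a wild-type female BALB/c mouse of 6 weeks that received 4T1 cells, a BALB/c mammary carcinoma line, on day 0 and complete microwave ablation (MWA) of the tumor on day 10. The MWA+2DG group was then given 2-deoxy-D-glucose (2DG), a glucose analogue that blocks glycolysis, at 500 mg/kg into the peritoneum every 2 days, and the MWA group was given the same volume of PBS. The nodes were taken on day 15. Both groups were ablated, so the comparison asked what 2DG added to MWA, and nodes without ablation were not analysed here.

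NK cells are innate lymphocytes that kill tumor and virus-infected cells without prior sensitization, and they read their targets through a balance of activating and inhibitory surface receptors. Activating receptors such as NKp46, NKG2D and DNAM-1 signal through adaptor proteins with tyrosine motifs or through their own tails, whereas inhibitory receptors such as CD94/NKG2A recruit phosphatases when they meet MHC class I molecules on healthy cells. Lymph nodes hold few NK cells, near the T cell zone, and several of these receptors are also carried by activated CD8+ T cells, gamma delta T cells and innate lymphoid cells. In a bulk library, a lower level can come from fewer cells that express a gene or from less RNA per cell, and these cannot be told apart.

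Of the 10 genes, 7 lie on chromosome 6, where Klre1, Klrd1, Klrk1, Klrc2 and Klrc1 are neighbours in the NK gene complex and Klrb1c lies in the same complex. Ncr1 lies on chromosome 7 and Cd244a on chromosome 1. The 3 promoters printed here belong to genes whose levels rose and fell together across the mice (described with the levels per mouse). They show the motif most shared among the 7 receptor promoters read, and any link between the motif and the levels was not tested. Each is the 250 bases before the RefSeq start in build GRCm38.p6, written 5′ to 3′ along the gene's strand, with the RUNX motif TGTGGT, or ACCACA where it lies on the other strand, in capitals.
Ncr1 promoter, chr7:4337465-4337714, plus strand: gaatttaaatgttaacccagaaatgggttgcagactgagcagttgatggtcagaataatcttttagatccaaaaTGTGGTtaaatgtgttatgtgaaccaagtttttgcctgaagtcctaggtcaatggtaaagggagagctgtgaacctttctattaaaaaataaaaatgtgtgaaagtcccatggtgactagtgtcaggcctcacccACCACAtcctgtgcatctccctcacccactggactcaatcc
Klrk1 promoter, chr6:129623865-129624114, minus strand: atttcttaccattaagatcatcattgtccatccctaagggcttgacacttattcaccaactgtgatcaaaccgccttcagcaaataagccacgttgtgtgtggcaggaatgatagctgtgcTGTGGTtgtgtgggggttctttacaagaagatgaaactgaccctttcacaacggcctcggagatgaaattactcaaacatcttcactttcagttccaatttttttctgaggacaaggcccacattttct
Klrc1 promoter, chr6:129678974-129679223, minus strand: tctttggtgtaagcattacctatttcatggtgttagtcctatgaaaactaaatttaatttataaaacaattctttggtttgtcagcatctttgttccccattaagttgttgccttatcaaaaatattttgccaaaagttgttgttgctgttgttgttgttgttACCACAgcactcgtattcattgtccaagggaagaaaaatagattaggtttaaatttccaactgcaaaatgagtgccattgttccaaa
TGTGGT was searched on both strands in windows of 300 bases around the start. It was found in 6 of the 7 receptor promoters read here (Ncr1, Klrb1c, Klrk1, Klrc1, Klrc2 and Klre1, with none in Cd244a), and in 16.8% of all 32851 promoters of that length. Klrd1 and Klrg1 had no promoter in the reference, and the promoter of Cd226 was left out before the search. The count therefore does not cover these receptors. Other motifs searched on both strands were TCACAC (T-box), found in 2 of the 7 promoters and 14.5% of all, and GGAAGT (ETS), found in 1 of the 7 and 23.8% of all. AGGTGTGA (a longer T-box form) and TTCNNNGAA (STAT) were in none of the 7, against 1.28% and 8.3% of all promoters. A match is a run of letters and not a measured binding site, the Klrc genes are related by duplication, and the reference is of another strain than BALB/c.

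Klrc1 and Klrc2, which encode NKG2A and NKG2C, share long identical stretches, so reads can be split between them in the counting. The stretch printed below lies in the coding parts of the transcripts Klrc1-203 and Klrc2-201 of GENCODE M21 and runs for 124 bases, against a read length of 150.
Klrc1 and Klrc2 shared coding run: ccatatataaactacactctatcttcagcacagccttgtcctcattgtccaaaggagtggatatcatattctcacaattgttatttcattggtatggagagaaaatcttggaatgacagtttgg
Over all pairs of coding transcripts, the longest identical run was 98 to 202 bases between Klrc1 and Klrc2, 80 between Klrc1 and Klrc3, and 201 to 209 between Klrc2 and Klrc3. The separate levels of these genes are therefore uncertain. Klrb1c overlaps the gene model Gm44511 on the same strand, and Cd244a overlaps Ly9 on the opposite strand; the sources used here do not give whether the counting used strand.

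The libraries held 24327 to 25226 genes above 0 and summed to 312143 to 359984 FPKM, and the read depth cannot be obtained from FPKM. T cell genes were abundant (Cd3e 24.2 to 38.8 FPKM), as in a lymph node, and Ncr1 was present in every library. Klra8, the receptor Ly49H that BALB/c mice lack, was listed at 0 in 9 of 10 libraries. Replicates 3 to 5 of both groups held liver transcripts (12 of 12 liver genes tested, summed FPKM 83.9 to 216), whereas replicates 1 and 2 of both groups had a sum of 6.59 to 8.37. The summed level of the 10 receptor genes was 20 to 23.1 FPKM in replicates 1 and 2 and 21.2 to 46.8 in replicates 3 to 5, so group differences are also given within these sets of replicates. The part of the liver transcripts in the receptor levels was not tested.

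No receptor gene was called by the rule of the study, an unadjusted limma P below 0.05 with a log fold change beyond 0.25 either way. The study does not name the base of the log, and log2 was chosen here, on log2(FPKM + 1). With limma-trend, 0 receptor genes were called as well. Among all 13334 genes tested, this rule called 0.952% (127) higher and 1.87% (249) lower with 2DG, 2.82% in all. Rescaling each library to a total of 1000000 turned this split to 328 higher and 159 lower. At an unadjusted limma P below 0.05 without the fold threshold, 1 of the 6 tested receptor genes passed, Cd226, against 4.25% of all genes. No gene of the series had an adjusted p below 0.05, with limma and Benjamini-Hochberg adjustment. The 2 groups overlapped for all 10 receptor genes, while 0.802% of all tested genes had groups that did not overlap, 0.292% higher and 0.51% lower with 2DG. The median log2 fold change of the 6 tested receptors was -0.05, against 0.01 over all tested genes, and it ran from -0.26 without MWA+2DG replicate 5 to 0.07 without MWA replicate 4.

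**Figure D1:**
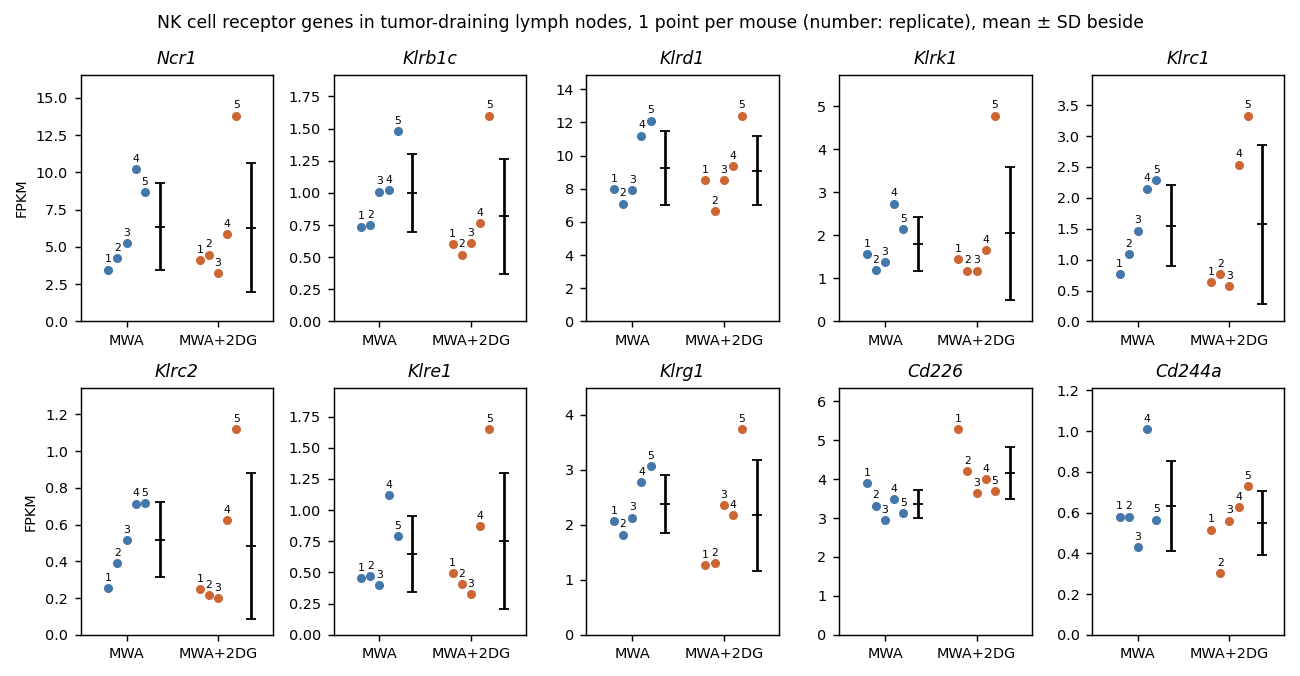
FPKM of each NK cell receptor gene (y axis, linear, from 0) in the MWA and MWA+2DG groups. Each point is 1 mouse with its replicate number, and the bar beside it is the mean ± SD of 5 mice. The groups overlap in every panel, and replicate 5 of the MWA+2DG group is the highest point in 8 of 10 panels.

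Ncr1 encodes NKp46, an activating receptor that marks NK cells and some innate lymphoid cells. In the MWA group its level was 3.48, 4.25, 5.24, 10.2 and 8.67 FPKM in replicates 1 to 5. In the MWA+2DG group it was 4.13, 4.48, 3.22, 5.87 and 13.8. The highest mouse (replicate 5) and the lowest mouse (replicate 3) were both in the MWA+2DG group, and the other 3 mice of that group lay within the MWA range. The means were 6.36 ± 2.91 and 6.31 ± 4.32 FPKM (SD, n = 5 each). On the log2 scale the difference was -0.08 (SE 0.35, 95% interval -0.86 to 0.70, limma P 0.828). An exact permutation test over the 10 mice gave a two-sided p of 0.881.

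Klrk1 encodes NKG2D, an activating receptor for stress-induced ligands that signals through DAP10 (Hcst) and DAP12 (Tyrobp). It measured 1.56, 1.2, 1.37, 2.74 and 2.15 FPKM in the MWA mice and 1.45, 1.18, 1.18, 1.65 and 4.78 in the MWA+2DG mice. Only replicate 5 of the MWA+2DG group stood above the MWA range, and replicates 2 and 3 stood just below it. The log2 fold change was 0.04 (SE 0.26, 95% interval -0.54 to 0.62, exact permutation p = 0.897).

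Klrd1 encodes CD94, which pairs with NKG2A or NKG2C and recognizes the class Ib molecule Qa-1b. It was the most abundant of the 10 genes, at 7.98, 7.1, 7.91, 11.2 and 12.1 FPKM in the MWA mice and 8.51, 6.65, 8.53, 9.35 and 12.4 in the MWA+2DG mice. The ranges of both groups nearly coincided. The means were 9.27 ± 2.25 and 9.08 ± 2.08 FPKM (SD, n = 5 each), with a log2 fold change of -0.02 (95% interval -0.40 to 0.35, exact permutation p = 0.921).

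The inhibitory partner gene Klrc1 (NKG2A) varied more between mice than any other receptor gene, with a ratio of 5.8 between the highest and the lowest mouse. It measured 0.76, 1.09, 1.47, 2.15 and 2.29 FPKM in the MWA mice and 0.641, 0.764, 0.573, 2.54 and 3.33 in the MWA+2DG mice. In the MWA+2DG group, 3 mice lay near or below the lowest MWA value and 2 mice lay above every MWA mouse. Its log2 fold change was -0.09 (SE 0.31, 95% interval -0.77 to 0.59, exact permutation p = 0.81). The activating partner Klrc2 (NKG2C) was lower, at 0.252 to 0.716 FPKM in the MWA mice and 0.201 to 1.12 in the MWA+2DG mice. Its mean of 0.499 FPKM was below the minimum for the test, and its log2 fold change of -0.06 came from a fit with no minimum (limma P 0.73, exact permutation p = 0.73). The difference between Klrc1 and Klrc2 on the log2(FPKM + 1) scale was 0.72 ± 0.19 in the MWA group and 0.69 ± 0.36 in the MWA+2DG group (exact permutation p = 0.881). The group difference of this value was thus smaller than the spread between mice, within the limit that the shared sequence of the genes sets. At these low levels the value depends on the pseudocount and is not the ratio of the partners. Its group difference changed sign with a pseudocount of 0.1.

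Klrg1 encodes an inhibitory receptor for cadherins that is found on mature NK cells and differentiated CD8+ T cells. It was 2.07, 1.82, 2.13, 2.78 and 3.06 FPKM in the MWA mice and 1.26, 1.3, 2.36, 2.18 and 3.74 in the MWA+2DG mice. Replicates 1 and 2 of the MWA+2DG group were the lowest of all 10 mice, while replicate 5 of that group was the highest. For Klrg1 the log2 fold change was -0.13 (SE 0.20, 95% interval -0.57 to 0.30, exact permutation p = 0.587). It was -0.37 within replicates 1 and 2 and 0.03 within replicates 3 to 5, and a difference between these sets was not tested. With replicates 1 and 2 only, Klrg1 was called lower by the study rule (limma P 0.00999, with 2 mice per group).

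The other 3 receptors of low level were also without a detectable group difference. Klrb1c encodes NK1.1, an activating receptor whose common antibody does not stain BALB/c NK cells. It was at 0.738 to 1.48 FPKM in the MWA mice and 0.519 to 1.6 in the MWA+2DG mice, where replicates 1 to 3 were below every MWA mouse and replicate 5 above. Its log2 fold change was -0.15 (limma P 0.358, exact permutation p = 0.389). Klre1, which pairs with Klri1 or Klri2 into inhibitory or activating receptors, had 0.397 to 1.12 FPKM in the MWA mice and 0.326 to 1.65 in the MWA+2DG mice (log2 fold change 0.06, exact permutation p = 0.841). Cd244a encodes 2B4, a receptor for CD48 that signals through SAP (Sh2d1a). It had 0.43 to 1.01 FPKM and 0.304 to 0.729 FPKM in the 2 groups (log2 fold change -0.07, exact permutation p = 0.492).

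**Figure D2:**
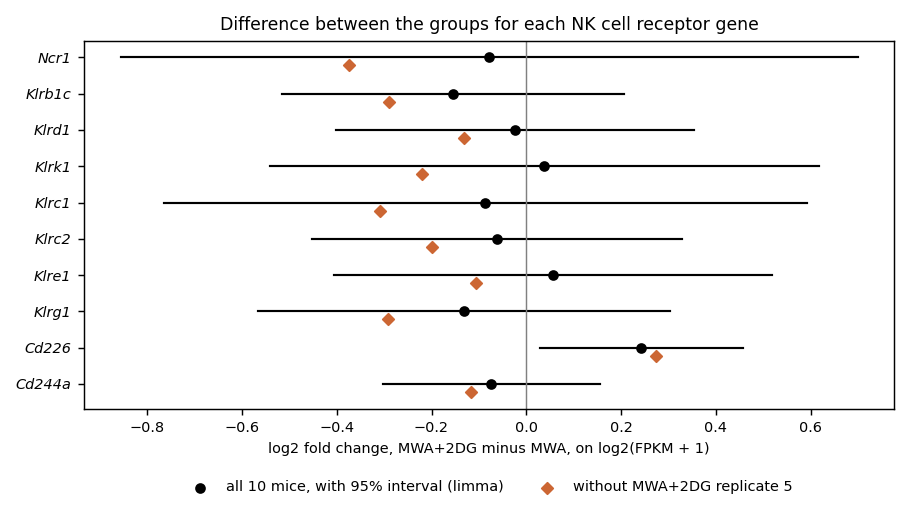
Log2 fold change of each receptor gene (x axis, MWA+2DG minus MWA, on log2(FPKM + 1)). Black points are all 10 mice with the 95% interval from limma, and orange diamonds leave out replicate 5 of the MWA+2DG group. Cd226 is the 1 gene whose interval does not reach 0 (0.03 to 0.46), and 9 diamonds lie to the left of 0.

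Cd226 encodes DNAM-1, an activating receptor of NK cells and T cells for the ligands PVR (CD155) and Nectin-2. It had the largest difference of the 10 genes in either direction. Its level was 3.9, 3.32, 2.95, 3.48 and 3.12 FPKM in the MWA mice and 5.29, 4.2, 3.65, 4 and 3.7 in the MWA+2DG mice. Replicates 1, 2 and 4 of the MWA+2DG group were above every MWA mouse, the other 2 were below MWA replicate 1 alone, and all 5 were above the MWA mean. The means were 3.35 ± 0.364 and 4.17 ± 0.665 FPKM (SD, n = 5 each). The log2 fold change was 0.24 (SE 0.10, 95% interval 0.03 to 0.46), just short of the threshold of 0.25. The limma P was 0.0296, the exact permutation p was 0.0317, and the adjusted p from limma over all tested genes was 0.995. Exchanging labels only within the sets of replicates gave an exact p of 0.0167, the smallest that design allows, with differences of 0.31 in replicates 1 and 2 and 0.20 in replicates 3 to 5. Leaving out replicate 1 of the MWA+2DG group gave 0.17 (limma P 0.0676), and the limma P was 0.0512 to 0.0721 when any of MWA replicates 2, 3 and 5 or MWA+2DG replicates 1 and 2 was left out. Leaving out any of MWA replicates 1 and 4 or MWA+2DG replicates 3, 4 and 5 gave 0.25 to 0.29, which the study rule called.

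The T cell genes moved the same way as Cd226. Cd3e, a T cell receptor subunit, was 28.8 ± 4.4 FPKM in the MWA group and 33.5 ± 4.66 in the MWA+2DG group (SD, n = 5 each, log2 fold change 0.21, exact permutation p = 0.127), and it was called higher at 0.29 without MWA replicate 1 or without MWA+2DG replicate 5. The log2 fold changes of the 14 T cell identity genes were all above 0 (median 0.16). Cd8a was also called higher (30.8 ± 5.69 to 37.3 ± 1.38 FPKM, n = 5 each, log2 fold change 0.28, limma P 0.0267, adjusted p 0.995), a call that was lost when any of MWA replicates 2, 3 and 5 or MWA+2DG replicates 1 and 3 was left out (lowest value 0.22). Expressed relative to the mean of the CD3 genes in the same mouse, Cd226 differed by 0.08 on the log2 scale between the groups (exact permutation p = 0.587). Leaving out 1 mouse gave 0.02 (without MWA replicate 1) to 0.19 (without MWA replicate 4) for Cd226. None of the other 9 receptors differed on that scale either, with exact permutation p from 0.381 to 0.81. The pseudocount shrinks differences of the low receptors more than those of the abundant CD3 genes. These relative values are therefore not ratios of the levels. The part of the T cell genes in the Cd226 difference was not tested further.

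Among the ligands of the receptors, 11 of the 16 listed genes found in the files were tested. The study rule called 1 of them higher and 0 lower, and the median log2 fold change was 0.05 against 0.01 over all tested genes. The called gene was Clec2i, which encodes a C-type lectin-related ligand (Clr-g) of NKR-P1 receptors. It measured 14.1, 13.3, 12.8, 12.8 and 11.2 FPKM in the MWA mice and 17.4, 14.2, 20.2, 15.5 and 15.8 in the MWA+2DG mice. The groups did not overlap, although the highest MWA mouse and the lowest MWA+2DG mouse nearly touched, a pattern found in the higher direction for 0.292% of all tested genes. This was a log2 fold change of 0.35 (SE 0.10, limma P 0.0045, adjusted p 0.995), with 0.19 within replicates 1 and 2 and 0.45 within replicates 3 to 5. The exact permutation p was 0.00794, the smallest that 5 against 5 mice allow.

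Pvr, the ligand of DNAM-1, had the next smallest P of the ligand list. Its level was 2.99, 2.53, 2.89, 2.44 and 1.95 FPKM in the MWA mice and 3.31, 3.02, 3.42, 3.11 and 3.03 in the MWA+2DG mice. All 5 MWA+2DG mice were above every MWA mouse, by a narrow margin over MWA replicate 1. The log2 fold change of 0.24 (SE 0.09) was short of the threshold, with a limma P of 0.0202, an adjusted p of 0.995 and an exact permutation p of 0.00794. Within the sets of replicates, Pvr differed by 0.15 and 0.30, and it was called when any of MWA replicates 1 and 3 or MWA+2DG replicates 2 and 5 was left out (0.25 to 0.28). Over all 10 mice, both Pvr and its receptor Cd226 were therefore higher at an unadjusted P below 0.05, neither passed the fold threshold, and neither passed the adjustment over all genes.

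Neither the other ligand of DNAM-1 nor the receptors Tigit and Cd96, which compete for PVR, were called over all 10 mice. Nectin2 was 5.25 ± 0.733 FPKM in the MWA group and 4.91 ± 0.337 in the MWA+2DG group (n = 5 each, exact permutation p = 0.389). The competing receptor Tigit, an inhibitory receptor of T and NK cells, was 10.5 ± 1.46 and 10.3 ± 1.95 FPKM (exact permutation p = 0.865). Cd96, another receptor for PVR, was 12.8 ± 2.21 and 15 ± 4.04 FPKM (log2 fold change 0.19, exact permutation p = 0.405). Its value was 0.33 without MWA+2DG replicate 5 (limma P 0.0454, called by the study rule) and 0.10 without MWA+2DG replicate 1. Ulbp1, a ligand of NKG2D, was 4.66 ± 0.954 and 3.87 ± 0.588 FPKM (log2 fold change -0.21, exact permutation p = 0.175), and was called lower without MWA replicate 5 (-0.29, limma P 0.0372). H2-T23, which encodes Qa-1b, the ligand of CD94/NKG2, was at 154 to 223 FPKM in 9 mice and at 390 in replicate 5 of the MWA+2DG group. Cd48, the ligand of 2B4, was 66.6 ± 6.1 and 65.8 ± 5.48 FPKM (exact permutation p = 0.754).

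Of the adaptors and proximal signaling genes, 15 of 17 were tested and 0 were called in either direction, with a median log2 fold change of 0.05. The smallest P values belonged to Plcg2, a phospholipase downstream of activating receptors (log2 fold change -0.16, limma P 0.123), to Ptpn6, the phosphatase SHP-1 recruited by inhibitory receptors (-0.09, limma P 0.184), and to Grb2, an adaptor (-0.10, limma P 0.197). Hcst, the NKG2D adaptor, was 30.4 ± 7.14 and 31.8 ± 5.56 FPKM, and Tyrobp, shared with myeloid cells, was 69.8 ± 18.2 and 60.4 ± 11.5 (SD, n = 5 each). In the list of other NK receptors, 11 of 27 were tested and 0 were called, with a median of -0.02. Cd27, a costimulatory receptor of T cells and less mature NK cells, had the smallest P there, at 38.5 ± 6.11 and 44.3 ± 5.76 FPKM (log2 fold change 0.20, limma P 0.124), and was called higher without MWA replicate 1 (0.29) or without MWA+2DG replicate 5 (0.27). Klri1, the inhibitory partner of Klre1, was 2.75 ± 0.463 and 2.38 ± 0.931 FPKM (limma P 0.339).

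Among NK effector and transcription factor genes, 17 of 20 were tested, 1 was called higher and 0 lower, with a median log2 fold change of 0.04. The called gene was Txk, a Tec family kinase of T and NK cells, at 2.58 ± 0.433 FPKM in the MWA group and 3.27 ± 0.358 in the MWA+2DG group (n = 5 each, log2 fold change 0.26, limma P 0.0219, exact permutation p = 0.0317, adjusted p 0.995). The call was lost when any of MWA replicates 2 and 3 or MWA+2DG replicates 1 and 5 was left out (lowest value 0.21). Eomes, a transcription factor of NK cells and memory CD8+ T cells, was 5.19 ± 1.38 and 5.26 ± 1.16 FPKM (exact permutation p = 0.992). The cytotoxic granule gene Prf1 was 11.2 ± 3.08 and 12.8 ± 3.88 FPKM (exact permutation p = 0.492). Ifng was listed at 0.188 to 2.16 FPKM in 9 mice and at 4.02 in replicate 5 of the MWA+2DG group.

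The order of the 10 genes by mean level over all mice was Klrd1 (9.18 FPKM), Ncr1 (6.34), Cd226 (3.76), Klrg1 (2.27), Klrk1 (1.93), Klrc1 (1.56), Klrb1c (0.909), Klre1 (0.699), Cd244a (0.59) and Klrc2 (0.499), on the length-scaled FPKM. The order of neighbours held in 9 of 10 mice for Klrd1 over Ncr1, for Cd226 over Klrg1 and for Klrc1 over Klrb1c, and in 8 for Klrg1 over Klrk1. It held in 7 mice for Ncr1 over Cd226, Klrk1 over Klrc1, Klrb1c over Klre1 and Cd244a over Klrc2, and in 5 for Klre1 over Cd244a. The last pair thus had no order beyond the spread between mice.

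For the receptors other than Cd226, the difference between the group means was smaller than the SD within either group. Replicate 5 of the MWA+2DG group was the highest of the 10 mice for 8 of the 10 genes. The exceptions were Cd244a, highest in MWA replicate 4, and Cd226, highest in MWA+2DG replicate 1. MWA replicates 4 and 5 were among the 3 highest mice for 8 and 7 genes. At the other end, MWA+2DG replicates 2 and 3 were each the lowest mouse for 4 genes. The mean z-score of the 6 tested genes was -0.424, -0.671, -0.441, 0.71 and 0.58 in the MWA mice and -0.278, -0.698, -0.533, 0.256 and 1.499 in the MWA+2DG mice. Each group thus held 3 mice below and 2 mice above the mean.

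**Figure D3:**
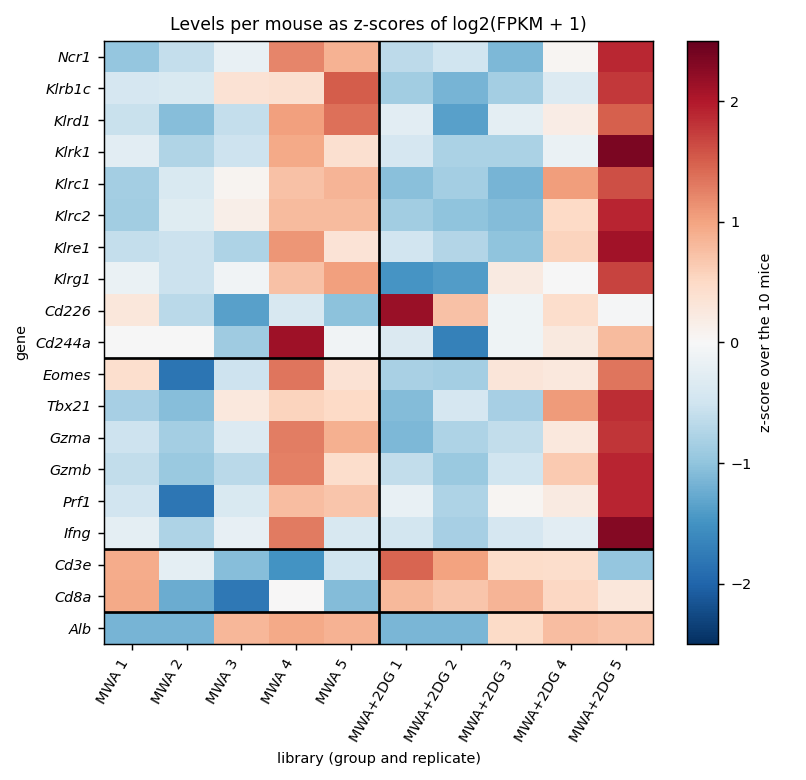
Level of each gene in each mouse as a z-score of log2(FPKM + 1) over the 10 mice (color scale from -2.5 to 2.5). Rows are the 10 receptor genes, 6 NK effector genes, the T cell genes Cd3e and Cd8a and the liver gene Alb, and columns are the libraries by group and replicate. Most receptor rows are darkest red in MWA+2DG replicate 5, Cd226 follows the row of Cd3e more than the other receptors, and Alb divides replicates 1 and 2 from 3 to 5.

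Without that mouse, 9 of the 10 receptors had a negative log2 fold change, while the median over all tested genes was 0.03. The fold change was -0.37 for Ncr1, -0.31 for Klrc1, -0.29 for Klrb1c and Klrg1, -0.22 for Klrk1 and -0.13 for Klrd1. None of the 6 tested genes was called lower, and Cd226 was called higher at 0.27 (limma P 0.0226). Klrb1c, below the minimum for the test, had a limma P of 0.0266 in the fit with no minimum. The mouse was picked because it was the highest for most of these genes. Leaving it out therefore lowers the mean and the spread of its group for them, and the values without it are a description and not a test. In the same mouse the 7 adipose genes summed to 97.2 FPKM, against 4.53 to 54.4 in the other 9 mice, and Cd3e was at 26.4 FPKM, the lowest of its group. The part of adipose tissue and of the T cell share in the values of this mouse was not tested.

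In 16 relations computed across the 10 mice of both groups on log2(FPKM + 1), Ncr1 was set against the other 9 receptors, 2 granzymes and Cd3e, and Cd3e against 4 receptors. Values were permuted over all 10 mice, without regard to group or replicate set. The permutation p therefore do not separate differences between groups or sets from those between mice. Ncr1 correlated with 7 receptor genes (Klrb1c, Klrd1, Klrk1, Klrc1, Klrc2, Klre1 and Klrg1) at Pearson's r of 0.761 to 0.949, with permutation p of 4e-05 to 0.0107 (0.00064 to 0.0172 adjusted over the 16 relations). Spearman's rho was 0.612 to 0.927, with permutation p of 0.00033 to 0.0656 (adjusted 0.00528 to 0.0875). With MWA replicate 4 and MWA+2DG replicate 5, the mice farthest from the median of Ncr1, left out, r was 0.499 for Klrg1 and 0.705 to 0.901 for the other 6. Within the 6 mice of replicates 3 to 5, r was 0.835 to 0.960, and replicates 1 and 2 held too few mice for a value. Cd244a had r of 0.595 with Ncr1 (permutation p = 0.0687, adjusted 0.0785) and rho of 0.527 (permutation p = 0.123), and r of 0.063 without those 2 mice, so this relation rested on them.

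Cd226 stood apart from the other receptors, with r of -0.297 and rho of -0.273 against Ncr1 (permutation p 0.411 and 0.45). It correlated instead with Cd3e, at r of 0.777 (permutation p 0.00518, adjusted 0.00921) and rho of 0.782 (permutation p 0.0108, adjusted 0.0288). Leaving out MWA replicate 4 and MWA+2DG replicate 1 gave r of 0.784, and the 6 mice of replicates 3 to 5 gave 0.515. Both genes had higher means in the MWA+2DG group and in replicates 1 and 2. Cd226 was at 4.18 FPKM in replicates 1 and 2 and 3.49 in replicates 3 to 5, and Cd3e at 35.1 and 28.5. The part of these differences in the correlation was not tested. Ncr1 and Cd3e ran in opposite directions, with r of -0.729 (permutation p 0.0183, adjusted 0.0244) and rho of -0.721 (permutation p 0.0235, adjusted 0.0466). Its r was -0.525 without the 2 farthest mice and -0.673 in replicates 3 to 5. Klrg1 and Cd3e did so too (r of -0.739, permutation p 0.015, adjusted 0.0218, rho of -0.709 with permutation p 0.0262), with r of -0.637 without the 2 farthest mice and -0.425 in replicates 3 to 5. Ncr1 was at 4.09 FPKM in replicates 1 and 2 and 7.84 in replicates 3 to 5, and Klrg1 at 1.61 and 2.71, opposite to Cd3e. The part of the replicate sets in these relations was not tested. Klrd1 and Klrk1 had r of -0.565 and -0.583 with Cd3e (permutation p 0.0916 and 0.0678) and rho of -0.455 and -0.552 (permutation p 0.191 and 0.105). All these values are scaled to the total of the same library, which the points therefore share. Gzma, which encodes granzyme A, had r of 0.950 with Ncr1 (permutation p 0.00018, adjusted 0.00106) and rho of 0.818 (permutation p 0.00561). Gzmb, which encodes granzyme B, had r of 0.910 (permutation p 0.00077, adjusted 0.00205) and rho of 0.612 (permutation p 0.0652). Their r was 0.846 and 0.697 without the 2 farthest mice and 0.981 and 0.894 in replicates 3 to 5.

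**Figure D4:**
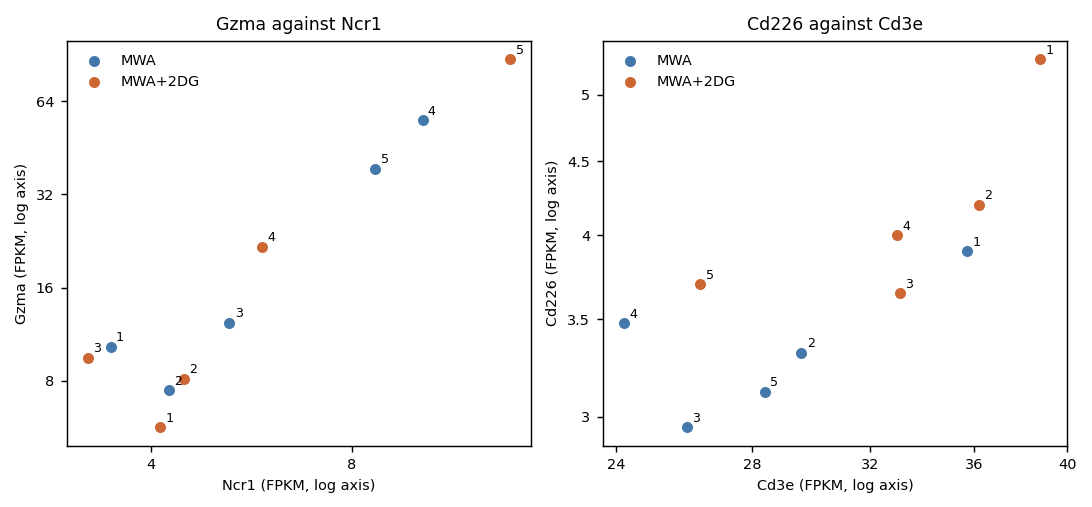
FPKM of Gzma against Ncr1 (left) and of Cd226 against Cd3e (right) on log axes, 1 point per mouse with its replicate number, colored by group. Gzma rises with Ncr1 in both groups, from 5.66 to 87.6 FPKM. Cd226 rises with Cd3e over all mice, and in each group replicate 1 is the highest mouse for both genes.

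The 10 genes outside the receptor list with the highest Pearson's r to the mean z-score of the 6 tested receptors over the 10 mice were Gzmb (0.975), Klra3 (0.960), Fpr2 (0.960), Tifab (0.954), Ly6c1 (0.953), Gzma (0.953), Plac8 (0.949), Ly6c2 (0.948), Gm5960 (0.947) and Slamf8 (0.943). These r are descriptions of the genes ranked highest of all tested genes and carry no test. Gzma ran from 5.66 to 87.6 FPKM and Gzmb from 2.15 to 54.2, the highest of both again in MWA+2DG replicate 5. Klra3, which encodes the Ly49C receptor, ran from 0.818 to 5.71 FPKM. When each mouse was left out in turn, 4 to 9 of the 10 genes kept their place among the 10 highest.

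Lists of other cell types were measured for comparison. CD8 T cell genes had a median log2 fold change of 0.28 with 1 of 5 called higher, B cell genes a median of -0.09 with 0 of 6 called, and gamma delta T cell genes a median of -0.11 with 0 of 6 called. Of 11 myeloid genes, 4 were called lower (Lyz2, Csf1r, S100a8 and S100a9), with a median of -0.04. Over all tested genes, 0.952% were called higher and 1.87% lower, and these 4 genes each had an adjusted p of 0.995 with limma. S100a8 was at 21.9 FPKM in its highest MWA mouse against an MWA median of 3.96, and S100a9 at 46.9 against 9.17. Their log2 fold changes were -2.79 and -2.79 within replicates 1 and 2, and -0.51 and -0.82 within replicates 3 to 5. Of 4 innate lymphoid cell genes and 3 mast cell and basophil genes, 0 were called, with medians of -0.04 and 0.02. Of 12 liver, 4 adipose and 2 epithelial genes, 0 were called, with medians of -0.34, 0.89 and 0.16. These medians moved when 1 mouse was left out. The liver median ran from -0.79 without MWA replicate 1 to 0.12 without MWA+2DG replicate 1, the adipose median from 0.55 without MWA+2DG replicate 5 to 1.19 without MWA+2DG replicate 4, and the epithelial median from -0.05 without MWA+2DG replicate 5 to 0.32 without MWA+2DG replicate 2. The mast cell and basophil median ran from -0.29 without MWA+2DG replicate 1 to 0.31 without MWA replicate 2, and the myeloid median from -0.21 without MWA+2DG replicate 5 to -0.01 without MWA+2DG replicate 3. Those of CD8 T cells (0.14 to 0.31), T cell identity (0.07 to 0.28), gamma delta T cells (-0.17 to -0.03), B cells (-0.15 to -0.05) and innate lymphoid cells (-0.09 to -0.01) kept their sign. The medians of the ligands (-0.0006 to 0.14), adaptors (-0.0024 to 0.05), other NK receptors (-0.09 to 0.02) and NK effector genes (-0.04 to 0.11) did not.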

How the data were processed

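TDLN libraries of 10 mice, 5 in the MWA and 5 in the MWA+2DG group by the sample titles, were used. The authors deposited FPKM per gene, made with fastp, HISAT2, StringTie and ballgown. The submitters' processing notes name cutadapt 1.9, HISAT2 2.0.4, UMI-tools, StringTie 1.3.4d and build mm9, without roles, while many gene identifiers belong to a later annotation, so no coordinates come from the files, and those of the promoters are RefSeq's in GRCm38.p6. Depth is unknown from FPKM. Of 33643 identifiers, 33541 matched a symbol, and 57 shared symbols were summed.

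Values were analysed as log2(FPKM + 1), which understates fold changes of low genes. Genes averaging 1 FPKM or more (13334) were tested with limma 3.58.1 in R 4.3.3, without covariates, with Benjamini-Hochberg adjustment and the study's thresholds (P 0.05, log2 fold change 0.25). The pseudocount and minimum are choices made here, and the code was checked on simulated data. Exact permutation tests were two-sided over mice, and correlations used 100000 permutations over all 10 mice, regardless of group and replicate set (scipy 1.17.1). P-values measure the spread between these mice. The replicate sets were seen in the data. Motifs were searched in RefSeq promoters. Named genes were the receptors, the called genes of each receptor-related list or its 3 of smallest P, the 10 of most similar pattern, and Cd3e, Cd8a, Eomes, Gzma, Prf1, Gzmb and Ifng. Pvr, Ulbp1, Hcst, Tyrobp, Nectin2, Tigit, H2-T23, Cd48, Klra8 and the called genes of the cell type lists were named after their values were seen, and some results of these lists are not reported here. The members and lists were chosen with earlier results of these data known. Alternatives were a pseudocount of 0.1, no minimum, a minimum of 5 FPKM, a library total of 1000000, quantile normalization, limma-trend, median ratio scaling, the replicate number as a block, the replicate set as a term, no fold threshold and leaving out each mouse in turn.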

Additional observations from a re-analysis of the deposited data

Results flagged for a closer look

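In 5 of 42 groups of 5 values tested, 1 mouse lay far from the others of its group by Dixon's criterion. Chance meets it in about 1 of 20 groups of independent, normally spread values. The groups here repeat the same mice over several genes, so the number of flags cannot be set against that rate. In replicate 5 of the MWA+2DG group, Ncr1 was 13.8 FPKM with the next mouse at 5.87, Klrb1c was 1.6 with the next at 0.763, and Klrk1 was 4.78 with the next at 1.65. Klrk1 relative to the CD3 genes was -2.51 on the log2 scale in the same mouse, with the next at -3.94. Cd244a was 1.01 FPKM in MWA replicate 4, with the next mouse at 0.58. The cause was not tested.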

How the results depend on the processing

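The receptor genes gave 0 calls under most alternatives. Cd226 was the 1 gene called higher with a pseudocount of 0.1 (0.30), a library total of 1000000 (0.34) and no fold threshold, and leaving out 1 mouse gave 0 to 1 calls. Klrg1 was the 1 gene called lower (-0.37) in replicates 1 and 2 only, a choice made after seeing the data, as were replicates 3 to 5 only. Pvr was called with the same 3 alternatives as Cd226, Clec2i was not called in replicates 1 and 2 only, and Txk was not called with quantile normalization (0.25). Over all genes, 127 were higher and 249 lower, against 69 and 161 with a minimum of 5 FPKM, 328 and 159 with a library total of 1000000 (median log2 fold change 0.07), 218 higher with no fold threshold, 388 higher in replicates 1 and 2 only and 389 lower in replicates 3 to 5 only. Leaving out 1 mouse gave 82 to 222 higher and 176 to 315 lower, the first extremes without MWA replicate 5 and without MWA+2DG replicate 5. The cause was not tested.

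The values of some genes changed sign. In replicates 1 and 2 only they were Ncr1 (0.13), Klrk1 (-0.036), Klre1 (-0.015), Eomes (-0.039) and Ifng (-0.088), and in replicates 3 to 5 only Klrg1 (0.026). Klrd1 was 0.037 with a library total of 1000000, and the difference of Klrc1 and Klrc2 was 0.025 with a pseudocount of 0.1. Leaving out 1 mouse gave -0.37 to 0.095 for Ncr1, -0.13 to 0.071 for Klrd1, -0.22 to 0.15 for Klrk1, -0.31 to 0.057 for Klrc1, -0.20 to 0.005 for Klrc2, -0.11 to 0.15 for Klre1, -0.12 to 0.0028 for Cd244a, -0.10 to 0.13 for Eomes, -0.83 to 0.15 for Gzma, -0.35 to 0.81 for Gzmb, -0.28 to 0.31 for Ifng and -0.13 to 0.052 for Klrc1 minus Klrc2. Relative to the CD3 genes the ranges were -0.62 to 0.026 for Ncr1, -0.47 to 0.080 for Klrk1 and -0.36 to 0.083 for Klre1. Of these, the lowest values of the receptors other than Cd244a and of the CD3-relative levels were those without MWA+2DG replicate 5.

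With the replicate number as a replicate block, 164 genes were higher and 285 lower, with 0 receptor genes called. The correlations between same-numbered mice were 0.033 to 0.501, and 3 of 10 mice correlated best with their own number, so the numbers were not taken to pair the mice. A minimum of 5 FPKM gave no value for receptors below it. Depth is unknown, and low receptors near or below 1 FPKM limit what could be detected.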
